A study of Mus musculus with 23 samples.

Results

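Testis explants of CD-1 mice kept in organ culture for 4 days (D4) were compared with testes taken directly from mice of the corresponding age, 10.5 days postpartum (dpp). The comparison rests on 6 of the 22 libraries that remained once identical columns were counted as 1: 3 libraries of D4 and 3 of 10.5 dpp, chosen by their labels. All 6 came from wild-type (wt) tissue that was never frozen. The explants were cut from testes of 6.5 dpp mice whose tunica albuginea, the fibrous capsule, had been removed. They were grown in α-MEM with a knockout serum replacement, gentamicin and all-trans retinol, the vitamin A alcohol from which cells make retinoic acid. Each D4 library was made from a pool of explants after the necrotic centre had been trimmed away, and each 10.5 dpp library from whole testis, so germ and somatic cells were measured together. The study's methods call the libraries of a group biological replicates. The labels do not say whether these came from separate animals or litters. The p-values rest on the spread between libraries of a group, estimated over 21 libraries in 7 groups and not over these 6 alone.

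At this age the seminiferous tubules are being filled by the first wave of spermatogenesis. Spermatogonia, the dividing germ cells at the tubule wall, respond to retinoic acid by differentiating, and the most advanced cells enter meiotic prophase, in which chromosomes pair and recombine. Sertoli cells nurse the germ cells, peritubular myoid cells wrap the tubules, and between the tubules lie vessels, macrophages and Leydig cells, which make androgens under the control of luteinizing hormone. An explant has no blood flow and no pituitary, and receives oxygen and nutrients by diffusion.

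The table held 27466 genes, of which 19255 were expressed enough to be tested. Depth was 41704439 to 69029328 counts at D4 and 35959200 to 54986423 at 10.5 dpp. Spearman correlations across genes were 0.994 to 0.997 among the D4 libraries, 0.996 to 0.997 among the 10.5 dpp libraries and 0.979 to 0.985 between the groups. Genes are not independent replicates, and these values are given as a description. The tissue label was checked against germ and Sertoli cell markers. Ddx4, a helicase made throughout the germ line, stood at 176 to 196 CPM (counts scaled to a fixed library total) at D4 and 255 to 280 CPM at 10.5 dpp. The Sertoli cell factor Sox9 was at 177 to 227 CPM at D4 and 175 to 202 CPM at 10.5 dpp, with overlap. The spermatid protamine Prm2 did not exceed 1.64 CPM in any of the 6 libraries.

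Most genes differed little between culture and mouse. Of the genes tested, 16425 (85.3%) had a log2 fold change between -1 and 1, and the median over all genes was -0.0063. With the study's thresholds, a log2 change of 2 or more in either direction and an adjusted p no higher than 0.001, 206 genes were differentially expressed (DEGs). At D4, 133 of them were higher, which is 0.691% of the genes tested, and 73 were lower, which is 0.379%. In all 206 DEGs the 3 D4 values lay wholly above or wholly below the 3 values of 10.5 dpp. Groups that do not overlap were common in the whole table, however, with 21.9% of genes higher and 24.7% lower in every D4 library after TMM scaling. At an adjusted p under 0.05, the threshold for the words rose and fell from here on, 947 genes rose (4.92%) and 612 fell (3.18%). Adjusted p-values are from edgeR's quasi-likelihood test with Benjamini-Hochberg adjustment over all genes tested.

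How many genes passed depended on which libraries shared the estimate of spread and on the scaling. The fit above used 21 libraries of all ages. When only the 6 libraries compared here were fitted, 3302 of 16288 genes rose (20.3%) and 3163 fell (19.4%), with 248 DEGs higher and 139 lower, and all 206 DEGs were called again. In the other direction, the library 6.5 dpp fresh replicate 1 had been left out of the fit by a rule set beforehand. Adding it left 17 DEGs higher and 17 lower, with 295 genes that rose and 152 that fell. Leaving out 1 of the 6 libraries gave 79 to 117 DEGs higher and 38 to 51 lower, the lowest counts without 10.5 dpp replicate 1 and without D4 replicate 3 respectively. Without TMM factors, on library size alone, 705 genes rose and 702 fell, so that higher genes made up 50.1% of the changed genes in place of 60.7%. For the gene lists below, the range in parentheses after a count is its lowest and highest value over all alternatives, these included.

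**Figure D1:**
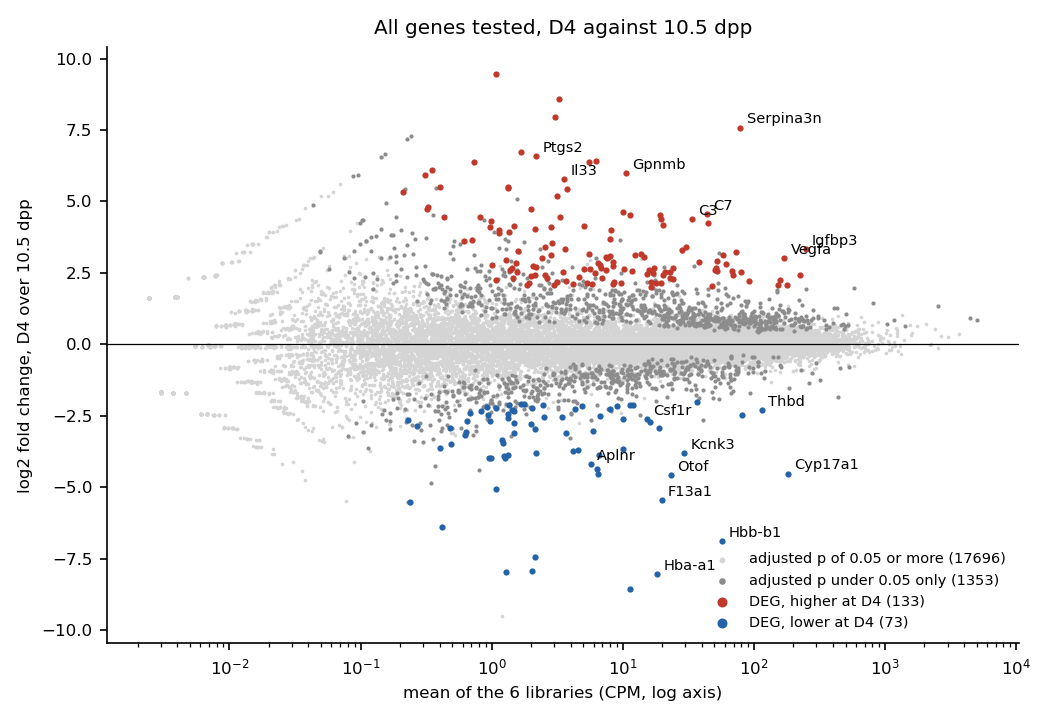
Log2 fold change of D4 over 10.5 dpp (vertical axis) against the mean level of the 6 libraries in CPM (horizontal log axis) for each of the 19255 genes tested. Red points are the 133 DEGs higher at D4 and blue points the 73 DEGs lower, while the other genes gather around 0.

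By size of change, 41 of the 133 higher DEGs changed by 16-fold or more, 24 by 8 to 16-fold and 68 by less. Of the 73 lower DEGs, 15 changed by 16-fold or more, 20 by 8 to 16-fold and 38 by less. The higher DEGs had a median of 10.9 CPM in the group in which they were high, against 3.79 CPM for the lower DEGs. In 14 higher and 7 lower DEGs the other group had at most 3 counts in each library, the floor used here, and for these a fold is given as a lower bound against 3 counts per library.

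Acute phase genes, which tissues switch on after injury and inflammatory signals, had the highest median of the 41 lists. Of 20 acute phase genes tested, 13 rose (10 to 16), 8 of them as DEGs, and 0 fell, and the list median was 2.13 on the log2 scale. All lists were written with earlier results of these data known. This list holds Serpina3n, Serpina3m and Serpina3g, paralogs that could share reads and are not separate observations. Its counts and median therefore depend in part on the choice of members. The leading gene was Serpina3n, an extracellular inhibitor of serine proteases at chromosome 12, 104406646 to 104414334 (GRCm38). Its level was 127, 177 and 165 CPM in the 3 D4 libraries and 0.651, 1.11 and 0.837 CPM in the 3 libraries of 10.5 dpp. The groups were far apart, with a fitted 192-fold difference (log2 7.59 ± 0.42 SE, adjusted p = 1.26e-08). In the 6.5 dpp testes from which explants are made it lay between 0.478 and 1.16 CPM over 1 fresh and 3 frozen-thawed libraries.

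Its neighbours on chromosome 12 ranged from genes that rose to genes that did not pass the test. Serpina3m was at 5.69, 7.05 and 5.46 CPM at D4 and at most 2 counts in a 10.5 dpp library, at least 88.6-fold higher. Serpina3i was at least 37.8-fold higher, at 1.86 to 2.97 CPM. Serpina3g (log2 5.49) and Serpina3f (log2 5.20), the latter outside the lists and chosen after its values were seen, were also DEGs. Other members of the family, Serpina3c and Serpina3b, had intermediate log2 fold changes of 2.5 and 0.974. Serpina3a stood at 179 to 193 CPM at D4 and 178 to 253 CPM at 10.5 dpp (adjusted p = 0.963), and Serpina3j at 2.04 to 2.64 and 2.42 to 3.23 CPM (adjusted p = 0.931). These paralogs are similar in sequence and could share reads, so the division of counts among them is uncertain.

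The remaining acute phase genes include proteins that the liver secretes into blood. Saa3, a serum amyloid A protein, was at 8.27, 12.3 and 12.1 CPM at D4 and 0.112, 0.0556 and 0.218 CPM at 10.5 dpp (log2 6.38 ± 0.57, adjusted p = 1.17e-06). Lcn2, which binds bacterial siderophores, rose from 0.651 to 0.751 CPM to 4.64 to 8.30 CPM (log2 3.35), and Hp, the haemoglobin scavenger haptoglobin, from 0.269 to 0.509 to 2.04 to 3.12 CPM (log2 2.86). The receptor and feedback genes of this cytokine response moved in the same direction, though less far. Osmr, the oncostatin M receptor, rose by 2.17 on the log2 scale, the feedback inhibitor Socs3 by 1.78 and the transcription factor Stat3 by 1.2. The broad protease inhibitor A2m, outside the lists but named by its p-value, was at 38.1, 40.6 and 31.5 CPM at D4 and 1.5, 1.72 and 1.87 CPM at 10.5 dpp (log2 4.52 ± 0.32, adjusted p = 8.53e-08).

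Complement, the plasma cascade that tags and lyses cells, moved in opposite directions by its parts. Of 26 genes tested, 11 rose (7 to 12) and 3 fell (3 to 6). Without 10.5 dpp replicate 3, 7 rose. The central component C3 was at 59.0, 69.3 and 64.8 CPM at D4 against 3.19, 3.11 and 3.55 CPM (log2 4.38 ± 0.29, adjusted p = 2.83e-08). C7, a subunit of the membrane attack complex, was at 79.1, 97.5 and 76.1 CPM against 3.46, 4.28 and 3.69 CPM (log2 4.55 ± 0.29, adjusted p = 2.39e-08). No D4 library came near a 10.5 dpp library for either gene. C6, which joins C7 in the attack complex, rose by 4.72 and C4b, an early component, by 4.64. The inhibitors Serping1 and Cfi rose by 0.99 and 1.05, and the proteases C1ra and C1s1 by 0.75 and 0.96. The genes that fell were C1qa, C1qb and C1qc, which encode the recognition subunit and are made by macrophages, with log2 fold changes of -2.11, -2.25 and -2.62. The summed level of 28 macrophage genes was lower too, at 150 to 200 CPM against 324 to 438 CPM. That sum includes C1qa, C1qb and C1qc, so it is not a separate observation. The part of macrophages in the C1q values was not tested.

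Among 35 cytokine and chemokine genes tested, 15 rose (6 to 16) and 2 fell (1 to 4). Without 10.5 dpp replicate 1 or 3, 9 or 8 rose. Il33, an alarmin released by damaged cells, had 7.38, 7.91 and 5.71 CPM at D4 and 0.0674, 0.167 and 0.164 CPM at 10.5 dpp (log2 5.78 ± 0.38, adjusted p = 2.63e-08). Cxcl14 was at 18.2 to 25.3 CPM against 0.751 to 1.29 CPM (log2 4.51), and the neutrophil attractant Cxcl1 rose by 3.93. Cxcl2, of the same kind, rose from at most 1 count in a 10.5 dpp library to 0.275 to 0.534 CPM. Cxcl10, Ccl2 and Ccl9 also rose, by 3.58, 2.26 and 3.70. The genes that fell were Ccl24, an eosinophil attractant that left at most 1 count in a D4 library and had been at 2.25 to 3.17 CPM, and Cxcl12, the ligand of CXCR4 that guides stem cells, at 30.5 to 34.7 against 91.3 to 108 CPM (log2 -1.49). The attractants of neutrophils rose while leukocyte markers other than those of macrophages stayed low, with a summed level of 8.38 to 11.4 CPM for 20 genes at D4 and 11.2 to 13.5 CPM at 10.5 dpp. Of the 15 that could be tested, 0 rose and 2 fell (1 to 3), Ptprc (log2 -1.27) and Cd4 (-2.24).

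Of 18 targets of NF-kB, the transcription factor of inflammatory signalling, 8 rose (5 to 11) and 0 fell. Ptgs2, the inducible cyclooxygenase, was at 3.65, 5.61 and 3.71 CPM at D4 and at most 3 counts in each 10.5 dpp library, at least 63.1-fold higher. Bcl3, Nfkbiz and Tnfaip3, regulators that feed back on the pathway, rose by 1.72, 1.47 and 1.17. In the interferon response 3 of 32 genes rose (0 to 16), among them the class I antigens H2-K1 and H2-D1, while 4.92% of all genes tested rose. In the fit of the 6 libraries 15 of 31 rose and 1 fell, beside 20.3% and 19.4% of all genes. The summed level of this list was 920 to 1010 CPM at D4 and 648 to 660 CPM at 10.5 dpp, without overlap. Of 19 immediate early genes, 3 rose (2 to 11): Ier3 (log2 2.47), Junb (1.84) and Zfp36 (0.84).

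**Figure D2:**
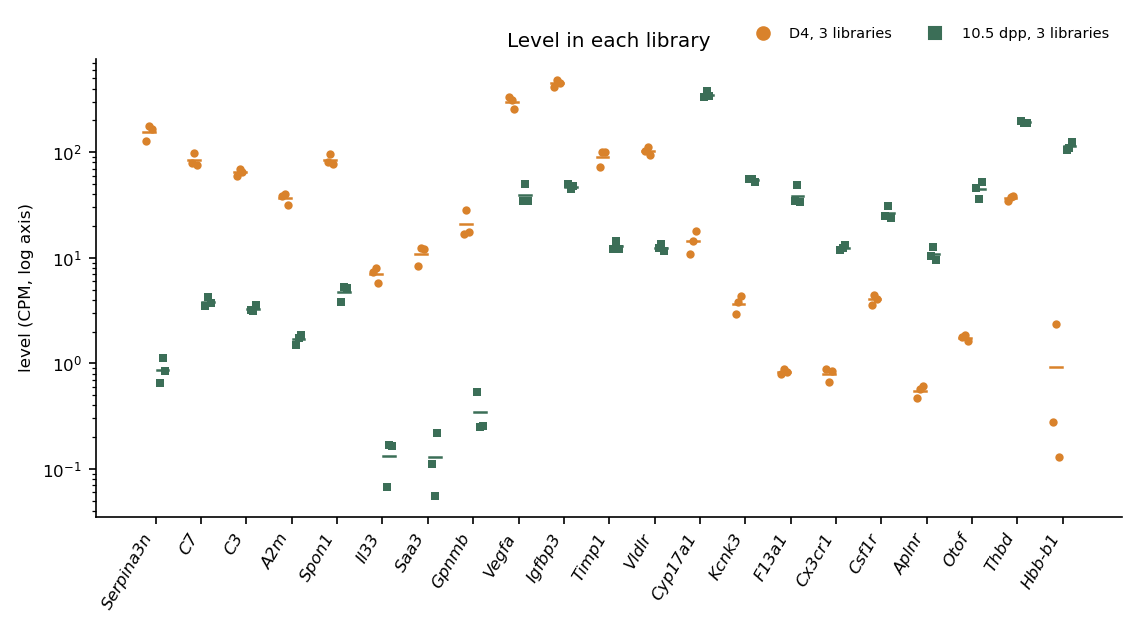
Level in CPM (vertical log axis) of 21 genes in each of the 3 D4 libraries (circles) and the 3 libraries of 10.5 dpp (squares), with horizontal bars for the group means. The genes were chosen with earlier results of these data known, so that their groups do not overlap is no separate result. Over all genes tested, 21.9% were higher and 24.7% lower in every D4 library after TMM scaling. The D4 libraries of Hbb-b1 spread from 0.13 to 2.37 CPM.

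Macrophage genes had a median below 0. Of 28 macrophage genes tested, 13 fell (10 to 21), 7 of them as DEGs, and 2 rose (1 to 3), with a list median of -1.42. The summed level of the list was 150, 200 and 180 CPM at D4, 324, 438 and 334 CPM at 10.5 dpp and 182 to 298 CPM in the 4 libraries of 6.5 dpp. In bulk tissue, fewer cells of a type and less RNA per cell cannot be told apart. F13a1, the coagulation factor XIII subunit that tissue-resident macrophages carry, was at 0.789, 0.887 and 0.826 CPM at D4 and 34.4, 48.6 and 33.5 CPM at 10.5 dpp (log2 -5.45 ± 0.47, adjusted p = 8.61e-07). Cx3cr1, the fractalkine receptor, was at 0.882, 0.671 and 0.840 CPM against 11.7, 12.5 and 13.1 CPM (log2 -3.87 ± 0.23, adjusted p = 1.41e-08). All 3 D4 libraries lay below every 10.5 dpp library for both genes. Csf1r, the receptor on which macrophage survival depends, was at 3.53 to 4.46 CPM against 23.9 to 30.9 CPM (log2 -2.63), and Adgre1, the classic surface marker of mouse macrophages, at 1.63 to 2.21 against 10.1 to 14.4 CPM (log2 -2.49). The scavenger receptors Mrc1 and Stab1 fell by 1.57 and 1.42. Timd4, a phosphatidylserine receptor, fell from 0.509 to 0.890 CPM to at most 3 counts in a D4 library.

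The macrophage list did not fall as a block. Lyz2, lysozyme, was at 31.5 to 53.4 CPM at D4 and 38.4 to 58.5 CPM at 10.5 dpp (adjusted p = 1), and Trem2 at 0.441 to 0.536 and 0.449 to 0.528 CPM (adjusted p = 0.978). Cd14, a receptor for bacterial lipopolysaccharide, rose by 1.79. Gpnmb, a glycoprotein of lysosome-rich macrophages that is also made by other cells, was at 16.6, 28.6 and 17.6 CPM at D4 and 0.539, 0.25 and 0.255 CPM at 10.5 dpp (log2 5.98 ± 0.55, adjusted p = 1.44e-06). Mmp12, macrophage elastase, was at 5.55, 9.02 and 4.98 CPM and had at most 1 count in each 10.5 dpp library, at least 95.2-fold higher. Further lower genes named by the rule on size or p are also known from macrophages: Fcrls (log2 -3.05), the ADP receptor P2ry13 (-3.98), Cbr2 (-4.52) and the lectin Cd209f, which was at 4.04 to 4.45 CPM at 10.5 dpp and at least 69.4-fold lower at D4.

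Globin transcripts were close to 0 at D4. Of 11 red cell genes tested, 5 fell (3 to 5) and 0 rose, with log2 fold changes from -8.57 to 0.81. Hbb-bt, a beta globin, was at 21.0, 25.8 and 21.1 CPM at 10.5 dpp and at most 3 counts in each D4 library, at least 367-fold lower. Hba-a1, an alpha globin, was at 33.7, 39.9 and 36.2 CPM against 0.0464, 0.384 and 0 CPM (log2 -8.04), and Hbb-b1 at 106, 109 and 126 CPM against 0.279, 2.37 and 0.13 CPM (log2 -6.89). The globin genes are near-identical copies and the share of each is uncertain. The anion exchanger Slc4a1 fell too, from 0.528 to 0.873 CPM to at most 2 counts in a D4 library. In the 4 libraries of 6.5 dpp the 15 red cell genes summed to 78.5 to 593 CPM, against 19 to 22.1 CPM at D4 and 174 to 195 CPM at 10.5 dpp. Most of what remained at D4 was Alas2, a heme synthesis enzyme, at 16.2 to 17.5 CPM against 8.18 to 12.3 CPM.

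The steroid synthesis genes of Leydig cells did not move together. Cyp17a1, the enzyme that turns progestogens into androgens, at chromosome 19, 46667165 to 46673000, was at 10.8, 14.3 and 18.0 CPM at D4 and 334, 376 and 340 CPM at 10.5 dpp. The groups were 23-fold apart (log2 -4.52 ± 0.32, adjusted p = 7.34e-08). In the 6.5 dpp libraries it was at 127 CPM fresh and 157, 160 and 241 CPM frozen-thawed, so all 3 D4 values also lay below the tissue of origin, a difference that was not tested here. Hsd17b3, which makes testosterone, fell by 1.59 and Star, which carries cholesterol into mitochondria, by 1.2. The hormone Insl3 fell by 2.39 from 6.70 to 7.17 CPM. Altogether 5 of 19 genes tested fell (1 to 9) and 1 rose (0 to 3), and 3 to 4 fell when 1 of the 6 libraries was left out.

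Hsd3b6, the 3-beta-hydroxysteroid dehydrogenase of adult Leydig cells, was the gene that rose, at 3.41, 5.87 and 5.36 CPM against 0.606, 1.47 and 0.673 CPM (log2 2.51 ± 0.50, adjusted p = 0.00315). Its paralog Hsd3b1 was at 168, 284 and 316 CPM at D4 and 362, 431 and 355 CPM at 10.5 dpp, a log2 difference of -0.50 ± 0.25 (adjusted p = 0.293). Cyp11a1, which makes pregnenolone, was at 67.7, 132 and 139 CPM against 175, 245 and 192 CPM (log2 -0.77, adjusted p = 0.203). In both genes D4 replicate 1 was the lowest of the 6 libraries. The receptor of luteinizing hormone, Lhcgr, was at 21.0 to 27.5 and 23.5 to 27.1 CPM (adjusted p = 1) and the factor Nr5a1 at 217 to 293 and 274 to 298 CPM (adjusted p = 0.964).

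Of 16 further genes that mark fetal or adult Leydig cells, 3 fell (2 to 8) and 0 rose. Kcnk3, a potassium channel of steroid-making cells, was at 2.95, 3.79 and 4.30 CPM at D4 and 56.0, 56.2 and 52.3 CPM at 10.5 dpp (log2 -3.81 ± 0.37, adjusted p = 3.01e-06). The receptor Crhr1 fell by 2.87 and the hedgehog target Gli1 by 1.16. The sum of the steroid synthesis list, described before these marks, stood at 1232 to 1694 CPM at D4 and 2056 to 2340 CPM at 10.5 dpp, without overlap. Cyp17a1 alone had a mean of 14.4 CPM at D4 and 350 CPM at 10.5 dpp in this sum, so it carries much of the difference.

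**Figure D3:**
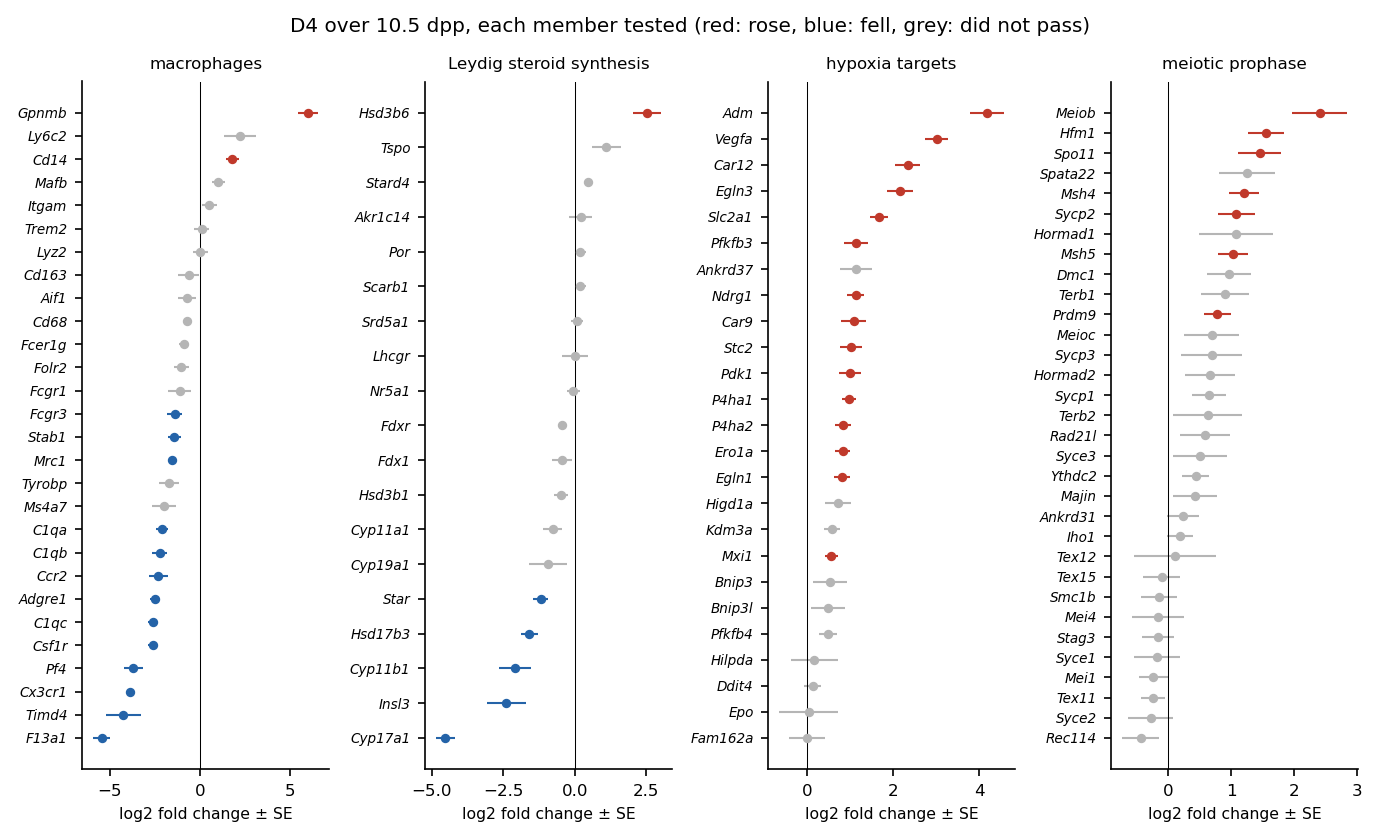
Log2 fold change of D4 over 10.5 dpp with its SE (horizontal axis) for every tested member of the lists of macrophages, Leydig steroid synthesis, hypoxia targets and meiotic prophase. Red marks members that rose, blue those that fell and grey those that did not pass, and the panels run from 13 fallen macrophage genes to 15 risen and 0 fallen hypoxia targets.

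Of 28 Sertoli cell genes tested, 3 rose (0 to 12) and 0 fell (0 to 5), and the list median was 0.14. Clu, a chaperone secreted in bulk by Sertoli cells, was at 6256, 6104 and 6801 CPM against 3543, 3896 and 3745 CPM (log2 0.86 ± 0.23, adjusted p = 0.0228). It made up a large part of the summed Sertoli level, which was 16376 to 18272 CPM at D4 and 13219 to 13822 CPM at 10.5 dpp. Trf, transferrin, rose by 1.92, and the X-linked Tsx was at 22.3, 15.5 and 21.7 CPM against 3.30, 4.23 and 3.24 CPM (log2 2.56). The hormone Amh was at 211 to 237 CPM at D4 and 348 to 388 CPM at 10.5 dpp (log2 -0.61, adjusted p = 0.0611), without overlap. Fshr, the receptor of follicle-stimulating hormone, was at 45.2 to 49.9 and 42.0 to 49.1 CPM (adjusted p = 0.819). Among 19 junction genes of the blood-testis barrier, Cdh2 and Jam3 rose by 0.80 each and Cldn3 fell by 1.32. The range over alternatives was 0 to 9 genes that rose and 0 to 5 that fell.

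Peritubular and vascular genes went in both directions. Of 19 myoid and smooth muscle genes, 4 fell (2 to 12) and 2 rose (1 to 2). Smooth muscle actin, Acta2, was at 233, 323 and 394 CPM at D4 and 556, 631 and 597 CPM at 10.5 dpp (log2 -0.83 ± 0.23, adjusted p = 0.0332). Rgs5, a pericyte marker, fell by 2.03, whereas Kcnj8 and Abcc9, which form a potassium channel of pericytes, rose by 2.02 and 1.32.

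Of 25 endothelial genes, 8 rose (3 to 11) and 5 fell (2 to 7). When 1 of the 6 libraries was left out, 5 to 7 rose and 2 to 4 fell. Esm1, a tip cell gene induced by VEGF, was at 24.5, 21.3 and 28.1 CPM at D4 and 2.31, 4.37 and 2.07 CPM at 10.5 dpp (log2 3.17 ± 0.40, adjusted p = 5.34e-05). The VEGF receptors Kdr and Flt1 rose by 1.27 and 1.21, Nos3 by 1.74 and Pecam1 by 0.85. A further VEGF receptor, Flt4, rose by 1.75 but belongs to the list of lymphatic vessels, of which 2 of 7 genes tested rose (1 to 2) and 0 fell. Aplnr, the apelin receptor of growing vessels, was at 0.464, 0.575 and 0.608 CPM against 10.4, 12.5 and 9.60 CPM (log2 -4.20 ± 0.27, adjusted p = 2.39e-08). Eng and Tek fell by 1.37 and 1.19. Thrombomodulin, Thbd, a clotting inhibitor named by its p-value, was at 34.8 to 38.5 CPM against 187 to 199 CPM (log2 -2.29). The summed endothelial level was 537 to 676 CPM at D4 and 522 to 616 CPM at 10.5 dpp, with overlap, so genes changed within a list whose sum did not separate the groups.

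**Figure D4:**
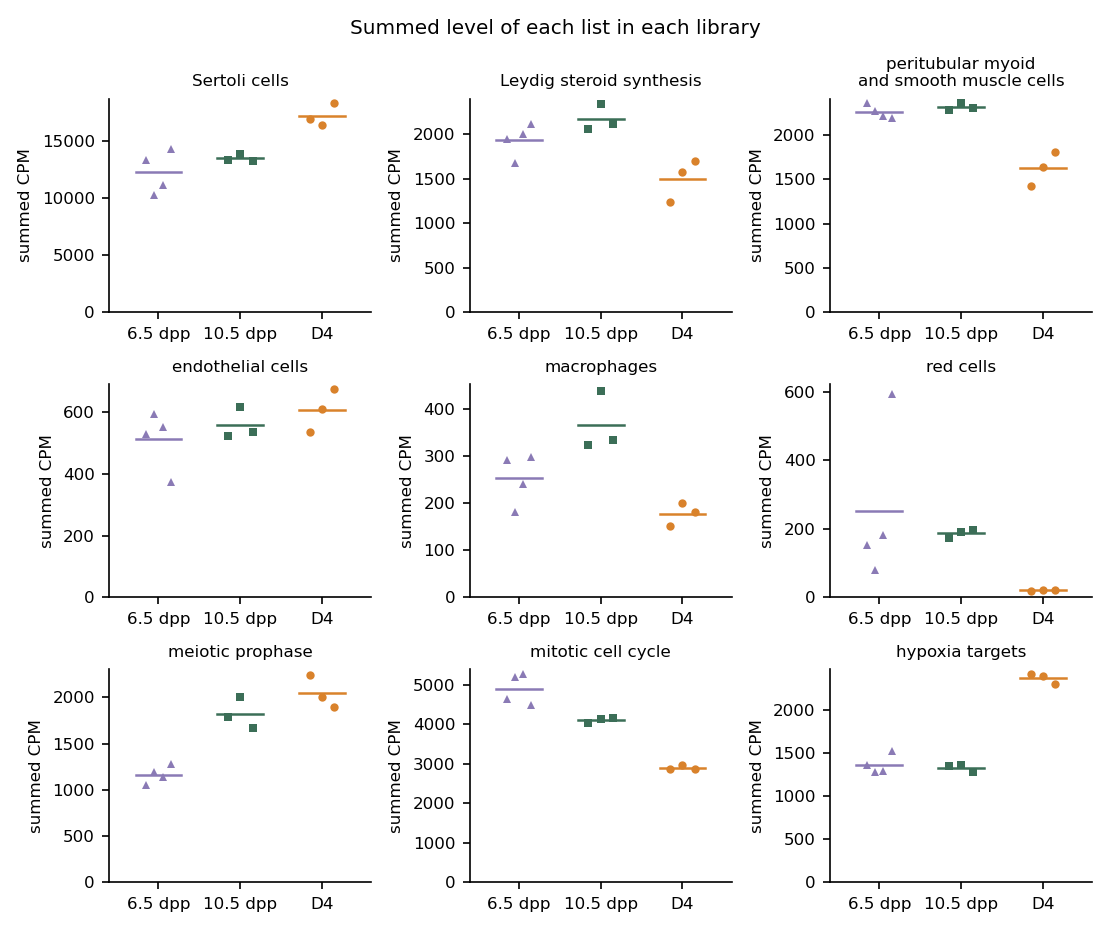
Summed CPM of 9 gene lists (vertical axis from 0) in each library of 6.5 dpp (triangles: 1 fresh, 3 frozen-thawed), 10.5 dpp (squares) and D4 (circles), with bars for the means. The macrophage, red cell, Leydig, myoid and mitotic sums at D4 lie below all those of 10.5 dpp. The hypoxia sum lies above, at 2310 to 2420 against 1284 to 1371 CPM, as does the Sertoli sum, at 16376 to 18272 against 13219 to 13822 CPM. The endothelial and meiotic sums overlap.

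Many genes that cells induce when oxygen is short were higher at D4. Under hypoxia, HIF transcription factors escape destruction and bind a core sequence near genes of vessel growth, glucose uptake and glycolysis. Of 25 such targets tested, 15 rose (9 to 21) and 0 fell, and 10 did not pass. The list median was 0.84, and 9 rose without 10.5 dpp replicate 1 or without replicate 3. Vegfa, the main growth factor of vessels, was at 333, 315 and 256 CPM at D4 and 34.4, 50.0 and 34.7 CPM at 10.5 dpp (log2 3.01 ± 0.27, adjusted p = 9.59e-07). Adm, the vessel-dilating peptide adrenomedullin, was at 47.5, 38.0 and 29.0 CPM against 2.25, 2.09 and 2.36 CPM (log2 4.19 ± 0.40, adjusted p = 1.98e-06). Both lay between 31.5 and 42.1 CPM and between 2.38 and 5.01 CPM at 6.5 dpp, below every D4 value. The carbonic anhydrase Car12 and the HIF hydroxylase Egln3 were the other DEGs of the list, with log2 fold changes of 2.34 and 2.16. The glucose transporter Slc2a1 rose by 1.68, Ndrg1 by 1.12 and Pdk1, which diverts pyruvate from mitochondria, by 1.00. Members that did not pass included Ddit4, at 163 to 194 and 163 to 188 CPM, and Hilpda, at 16 to 19.6 and 16.5 to 17.9 CPM.

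Promoters of this list were searched for the HIF core ACGTG on both strands, in the 250 bases before the start site and only where these bases lie outside the annotated gene (RefSeq, GRCm38.p6). That left 15 of the 25 genes, of which 9 held the core, and 6 of the 9 that had risen and had such a promoter. Over all 8694 promoters of tested genes that could be searched, 20% held it. The promoters of Egln3 (chr12:54203875-54204124, minus strand) and Slc2a1 (chr4:119108495-119108744, plus strand) are shown because both genes rose and each holds the core, in capitals. A match is a description of these letters and not evidence of binding.
Egln3: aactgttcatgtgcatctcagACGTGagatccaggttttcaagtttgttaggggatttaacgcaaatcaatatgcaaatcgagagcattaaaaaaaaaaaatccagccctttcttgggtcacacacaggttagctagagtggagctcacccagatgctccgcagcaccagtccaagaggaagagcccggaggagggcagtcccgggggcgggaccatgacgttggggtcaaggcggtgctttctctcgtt
Slc2a1: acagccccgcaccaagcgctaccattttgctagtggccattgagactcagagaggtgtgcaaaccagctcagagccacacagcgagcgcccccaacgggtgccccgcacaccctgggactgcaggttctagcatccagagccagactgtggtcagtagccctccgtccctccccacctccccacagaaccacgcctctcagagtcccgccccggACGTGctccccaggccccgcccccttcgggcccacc
In the same way the STAT motif TTCNNNGAA was found in 4 of 9 acute phase promoters, 2 of them among 4 that rose, and in 6.83% of all promoters. It lies in the promoter of Serpina3g (chr12:104235897-104236146, plus strand), again in capitals.
Serpina3g: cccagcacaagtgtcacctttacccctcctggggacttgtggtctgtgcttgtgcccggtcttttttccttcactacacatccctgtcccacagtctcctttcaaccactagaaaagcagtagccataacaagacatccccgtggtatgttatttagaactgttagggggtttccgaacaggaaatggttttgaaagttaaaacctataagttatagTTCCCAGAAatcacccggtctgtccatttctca
The kB motif GGNNTTTCC was held by 3 of 7 promoters of NF-kB targets and by 5.2% of all promoters. Only a few promoters of each list could be searched, and no test was made.

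Some hypoxia targets also belong to glycolysis. Of 20 glycolysis genes tested, 8 rose (3 to 17) and 0 fell (0 to 1), and 12 did not pass, with log2 fold changes from -1.33 to 2.67 over the list. Without D4 replicate 2, 10.5 dpp replicate 1 or 10.5 dpp replicate 3, 3 rose. The phosphofructokinase Pfkl was at 332 to 446 CPM at D4 against 98.8 to 121 CPM (log2 1.93), Ldha, which makes lactate, rose by 1.38 and Eno2 by 2.67. Of 29 genes of cholesterol synthesis and uptake, 10 rose (2 to 26) and 0 fell. On library size alone 6 rose, and when 1 of the 6 libraries was left out 2 to 7 rose, the fewest without 10.5 dpp replicate 3. The lipoprotein receptor Vldlr led this list, at 102, 113 and 93.3 CPM against 12.5, 13.4 and 11.5 CPM (log2 3.13 ± 0.19, adjusted p = 1.41e-08). Msmo1 and Cyp51, enzymes of cholesterol synthesis, rose by 1.09 and 0.87. Scd1, which desaturates fatty acids, was at 105 to 108 CPM against 14.9 to 17.9 CPM (log2 2.82), but 2 of 22 genes of fatty acids and lipid droplets rose in all (2 to 12).

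Stress genes changed in part. Over all genes tested 4.92% rose and 3.18% fell, and in the fit of the 6 libraries 20.3% rose and 19.4% fell. Of 21 genes of the unfolded protein, amino acid and heat responses, 6 rose (3 to 12) and 0 fell (0 to 4), led by the small heat shock protein Hspb8 (log2 2.88) and Chac1 (2.44), which degrades glutathione, with Atf4 and Hspa5 at 0.74 and 0.66. Of 27 targets of NRF2, the factor of the oxidative response, 4 rose (2 to 15) and 1 fell (0 to 2). Of 17 enzymes that remove peroxide and superoxide, 1 rose (1 to 4), which is near the share of all genes. It was Gpx3, a secreted glutathione peroxidase, at 110, 137 and 148 CPM against 15.0, 14.2 and 15.0 CPM (log2 3.24 ± 0.32, adjusted p = 2.77e-06). Of 24 targets of p53 and cell death genes, 4 rose (2 to 11) and 2 fell (0 to 6), and the cell cycle inhibitor Cdkn1a was among those that rose (log2 1.37). Of 17 genes of iron, copper and zinc, 6 rose (2 to 9) and 0 fell, including the transferrin receptor Tfrc (1.2).

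Matrix and wound genes rose more often than they fell, as did all genes tested (4.92% rose and 3.18% fell). Of 28 genes of TGF beta, CCN proteins and wounds, 15 rose (11 to 19), 6 of them as DEGs, and 4 fell (0 to 5). Tnc, tenascin C, a matrix protein of healing tissue, was at 33.4, 41.2 and 37.5 CPM against 1.46, 2.53 and 1.71 CPM (log2 4.39 ± 0.37, adjusted p = 7.27e-07). Plaur and Plau, the urokinase receptor and its ligand, rose by 4.13 and 2.53, and Timp1, an inhibitor of metalloproteases, by 2.91. The CCN family divided. Ccn5 was at 8.94, 13 and 15.1 CPM against 0.112, 0.0834 and 0.236 CPM (log2 6.42 ± 0.52, adjusted p = 4.58e-07) and Ccn1 rose by 1.49, while Ccn2, Ccn3 and Ccn4 fell by 1.04, 1.84 and 1.49. The direction of each of these genes was the same under RLE scaling and on library size alone.

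Of 25 matrix proteases and inhibitors, 9 rose (4 to 12) and 1 fell (0 to 4). Of 32 collagen genes, 4 rose (3 to 16) and 1 fell (0 to 8). Col3a1, a fibrillar collagen of loose tissue, was at 3140 to 3991 CPM at D4 and 1400 to 1607 CPM at 10.5 dpp (log2 1.35, adjusted p = 0.00288). Of 25 genes of basement membrane and small proteoglycans, 2 rose (1 to 10) and 1 fell (0 to 8), with a list median of 0.0871. Elastin, Eln, fell, at 128, 175 and 237 CPM against 389, 551 and 420 CPM (log2 -1.25, adjusted p = 0.027). The proteoglycans Lum and Prelp rose by 1.98 and 1.59.

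In the IGF axis of growth factors 6 of 19 genes rose (3 to 9) and 0 fell (0 to 5), and 3 to 4 rose when 1 of the 6 libraries was left out. Igfbp3, a binding protein that holds IGF in tissue, was at 411, 483 and 452 CPM against 49.5, 44.7 and 47.7 CPM (log2 3.33 ± 0.32, adjusted p = 2.19e-06), and Igfbp5 and Igf1 rose by 2.52 and 0.83. Of 28 genes of Wnt and hedgehog signalling, 8 fell (0 to 17) and 2 rose (1 to 5). With 6.5 dpp fresh replicate 1 included 0 fell, and when 1 of the 6 libraries was left out 3 to 5 fell. Lef1, Sfrp1 and Wnt6 fell by 1.98, 1.26 and 0.71, whereas Wnt4 was at 24.1 to 32.1 CPM against 4.73 to 6.79 CPM (log2 2.48). Of 19 imprinted growth genes, 6 fell (0 to 13) and 0 rose (0 to 2), among them Zim1 (log2 -1.62), Nnat (-1.30) and Dlk1 (-1.02). Peg3, at 124 to 152 against 251 to 302 CPM, did not pass (adjusted p = 0.0761).

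Over 5 germ cell lists with 119 tested members, 16 rose, 9 fell and 0 were DEGs. Over all genes tested, 4.92% rose and 3.18% fell. DEGs are rare in the whole table, at 0.691% higher and 0.379% lower, so few would be met among 119 genes. Of 24 genes of undifferentiated spermatogonia, 2 fell (1 to 10) and 2 rose (0 to 6). Neurog3 and Sox3, made as spermatogonia leave the stem cell state, were at 0.647 to 1.13 CPM against 3.28 to 4.09 CPM (log2 -1.93) and at 10.6 to 13.1 against 30.1 to 33.6 CPM (-1.40). Id4 and Etv5, factors of the stem cell state, rose by 1.26 and 0.89. Most members, such as Sall4, Foxo1 and Uchl1, did not pass (adjusted p = 0.795, 0.744 and 0.765).

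Among 22 genes of the retinoic acid response and of differentiating spermatogonia, 4 rose (2 to 9) and 6 fell (0 to 8). When 1 of the 6 libraries was left out, 2 to 3 fell. Stra8, the retinoic acid target that opens meiosis, was at 156, 168 and 221 CPM at D4 and 164, 164 and 152 CPM at 10.5 dpp, values that interleave in CPM (log2 0.27 ± 0.22, adjusted p = 0.620). Lrat, which stores retinol as ester, rose by 1.31, and Rdh10 and Aldh1a3, which oxidize it to retinoic acid, by 0.91 and 0.87. Cyp26b1, which degrades retinoic acid, was at 120, 141 and 163 CPM against 376, 405 and 368 CPM (log2 -1.36 ± 0.30, adjusted p = 0.00703). The spermatogonial factors Sohlh1, Sohlh2 and Dmrtb1 fell by 0.91, 0.83 and 1.21, and Kit was at 118 to 126 against 185 to 200 CPM (log2 -0.58, adjusted p = 0.186).

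Of 32 genes of meiotic prophase tested, 7 rose (0 to 19) and 0 fell (0 to 3), with a list median of 0.60. With 6.5 dpp fresh replicate 1 included 0 rose, and without 10.5 dpp replicate 1 or without replicate 3, 3 rose. Meiob, which holds single-stranded DNA during recombination, was at 31.6, 26.2 and 28.1 CPM at D4 and 5.46, 7.34 and 4.36 CPM at 10.5 dpp (log2 2.41 ± 0.44, adjusted p = 0.00159). At 6.5 dpp it was at 0.856 to 2.72 CPM. Hfm1, Spo11, Msh4 and Msh5, which make or resolve recombination breaks, rose by 1.56, 1.45, 1.2 and 1.03, and Sycp2, of the synaptonemal complex, by 1.08. The other axis and complex genes did not pass in this fit, for instance Sycp3 at 79.4 to 89.8 against 51.0 to 60.7 CPM (adjusted p = 0.527) and Stag3 at 221 to 225 against 250 to 281 CPM (adjusted p = 0.845). The summed level of the list was 2243, 2009 and 1894 CPM at D4, 1793, 2007 and 1669 CPM at 10.5 dpp and 1048 to 1279 CPM at 6.5 dpp.

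Of 20 genes of the piRNA pathway, which silences transposons in germ cells, 1 rose (0 to 2) and 1 fell (0 to 13). Over all genes tested 4.92% rose and 3.18% fell. In the fit of the 6 libraries 2 of the 20 rose and 13 fell, beside 20.3% and 19.4% of all genes. The summed level of the list was 1411 to 1557 CPM at D4 and 1962 to 1984 CPM at 10.5 dpp, without overlap. Henmt1, which methylates piRNAs, was at 6.99 to 8.08 against 15.9 to 18.2 CPM (log2 -1.12). Ddx4, which works in this pathway, differed by -0.45 ± 0.24 (adjusted p = 0.348, and 0.00293 in the fit of the 6 libraries, with a range of 0.00117 to 0.782 over all alternatives). Of 21 genes of pachytene spermatocytes and spermatids, Mybl1 and Adam2 rose, by 1.22 and 2.38 (0 to 4), and 0 fell (0 to 2).

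Of 31 genes of the mitotic cell cycle tested, 4 fell (1 to 25) and 0 rose, with a list median of -0.55. Cyclin D1, Ccnd1, was at 36.3, 32.2 and 34.1 CPM against 100, 93.0 and 85.5 CPM (log2 -1.36 ± 0.20, adjusted p = 0.000263). Aurkb, Plk1 and Kif11, which drive mitosis, fell by 0.77, 0.90 and 0.73. The helicase subunit Mcm2, at 162 to 176 against 269 to 287 CPM, did not pass (adjusted p = 0.202), and Cdk1, at 77.4 to 88.0 against 76.7 to 87.0 CPM, overlapped between the groups. The summed level was 2869, 2965 and 2857 CPM at D4, 4022, 4120 and 4152 CPM at 10.5 dpp and 4472 to 5266 CPM at 6.5 dpp, so the 3 groups did not overlap.

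**Figure D5:**
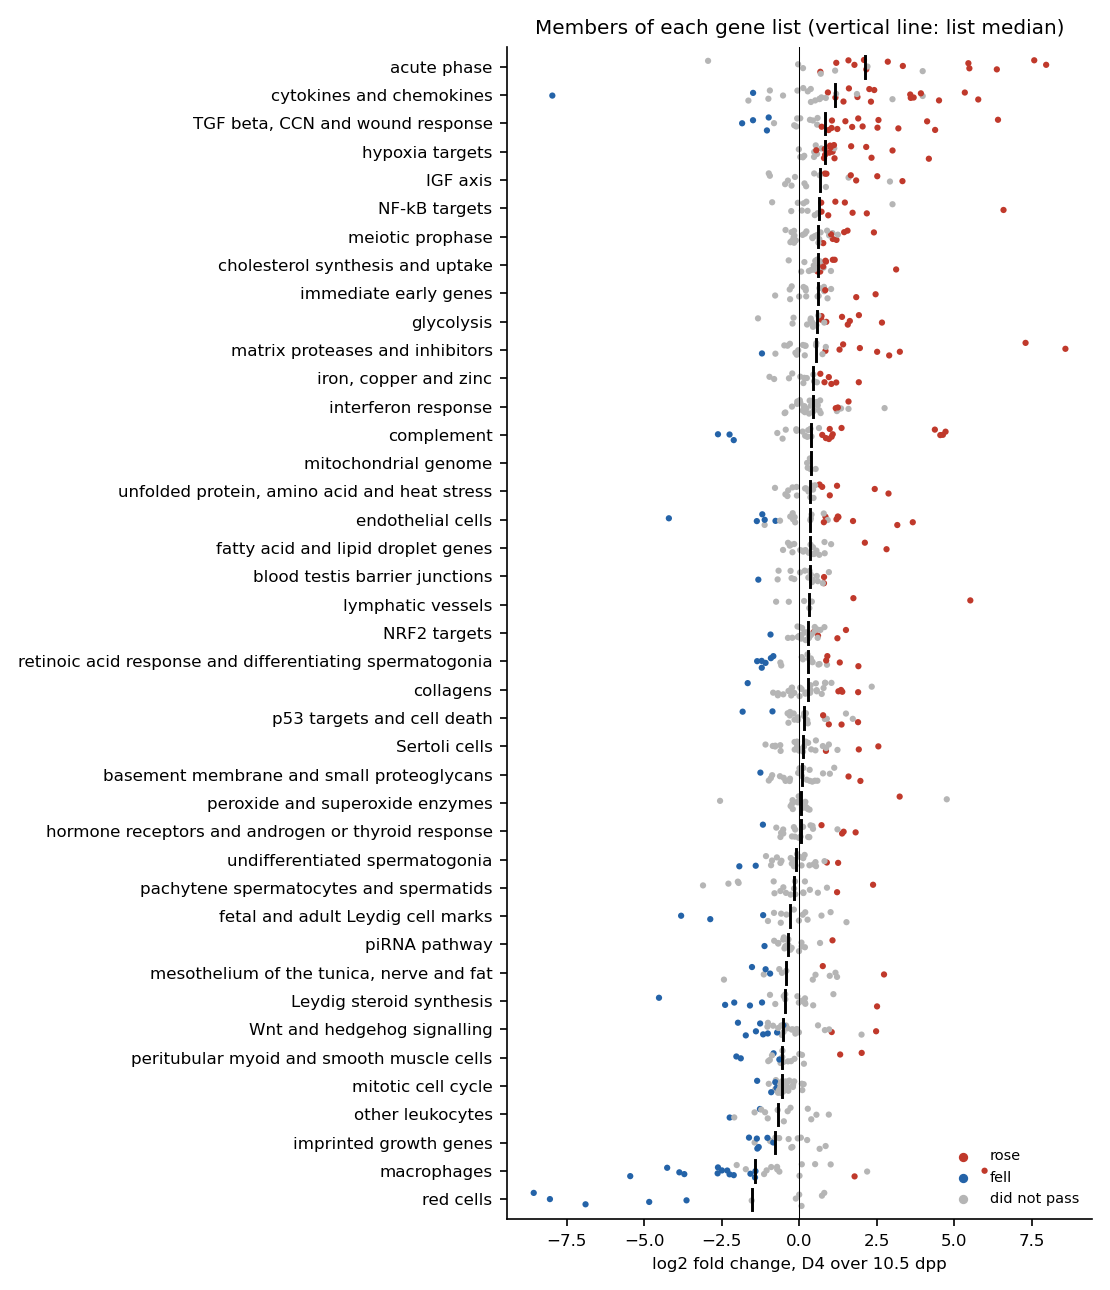
Log2 fold change of D4 over 10.5 dpp (horizontal axis) of every tested member of the 41 gene lists, ordered by list median (black line). Acute phase genes lie at the top with a median of 2.13 and macrophage and red cell genes at the bottom with medians of -1.42 and -1.53, and most lists straddle 0.

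The other named DEGs came from varied settings. Higher at D4 were Spon1, a matrix protein of axon guidance (79.8, 96.0 and 77.4 against 3.77, 5.28 and 5.18 CPM, log2 4.24), Adam23 (log2 2.59), the autophagy gene Dram1 (2.53), Ttc9 (2.88) and the melanocortin receptor partner Mrap2 (5.42). Serpinb11 had no count in a 10.5 dpp library and was at 1.93 to 2.39 CPM at D4, at least 31.8-fold higher, and Gkn1, a stomach protein, was at least 48.8-fold higher at 1.83 to 4.2 CPM. Lower at D4 were Otof, which serves vesicle fusion (1.76, 1.85 and 1.64 against 45.7, 36.4 and 52.5 CPM, log2 -4.59), the G protein regulator Rgs17 (-4.35), Aldh3a1 (-3.65), Tnfrsf19 (-3.10), the claudin gene Cldn34c1 (at least 13.5-fold lower) and the organic anion transporter Slco1a4. The last was at 5.70, 1.06 and 5.46 CPM at 10.5 dpp, with replicate 2 apart from the others, and at least 66-fold lower at D4.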

How the data were processed

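RNA was sequenced as single-end reads of stranded polyA libraries. Per the labels and the study's methods, the authors aligned reads to GRCm38 with STAR 2.7.3a and counted them per gene with HTSeq 0.12.4. The strand setting is not given in the sources used here. The deposited table holds raw counts per gene for 23 columns and all of them were mapped to samples. The columns of 6.5 dpp fresh replicates 2 and 3 are identical and were counted once. By a rule set beforehand, 6.5 dpp fresh replicate 1 was left out of the fit. Its Spearman correlation with the 6 compared libraries was 0.872 to 0.888, which was not set against that of other libraries outside the 6. Counts outside the GRCm38.p6 annotation made up 0.0204% of the total.

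D4 was tested against 10.5 dpp with edgeR 4.0.16 (R 4.3.3; TMM factors, filterByExpr, quasi-likelihood test) over 21 libraries in 7 groups, which share the estimate of spread. Printed levels are CPM, counts scaled to a fixed library total. Log2 fold changes are D4 over 10.5 dpp, with SE. The floor was 3 counts per library. The script was tested on simulated data. DESeq2 1.42.0 was an alternative. Alternatives also covered scaling, filters, the libraries fitted, a replicate block and leaving out each library. Named genes were, per direction, the 12 DEGs with the smallest p whose D4 and 10.5 dpp values do not overlap. The 8 DEGs per direction with the largest change and a mean of at least 5 CPM in the higher group were added. So were the 6 per direction with 1 group at the floor and the highest level in the other. Genes the study discusses and list members complete them. The gene lists and named genes were chosen with earlier results of these data known. Promoter sequences are from RefSeq. Figures were drawn with matplotlib 3.10.9.

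Some results are not reported here.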

Additional observations from a re-analysis of the deposited data

How the results depend on the processing

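DEGs numbered 133 higher and 73 lower, and changed genes 947 and 612. DESeq2 called 206 and 116 DEGs and 1188 and 978 changed genes, and 204 of the 206 DEGs were shared. Fitting only the 6 libraries gave 248 and 139 DEGs and 3302 and 3163 changed genes. With 6.5 dpp fresh replicate 1 included, 17 and 17 DEGs and 295 and 152 changed genes remained. Leaving out 1 library gave 79 to 117 DEGs higher, 38 to 51 lower, 491 to 650 genes that rose and 293 to 400 that fell. Counts fell by over 1.5 times without 10.5 dpp replicate 1 (79 and 45 DEGs, 518 and 335 changed) or replicate 3 (80 and 44, 491 and 331). The same held in part without 10.5 dpp replicate 2 (400 fell) and without D4 replicate 1 (39 DEGs lower, 625 and 293 changed), replicate 2 (43, 627 and 319) or replicate 3 (38, 333 fell). The cause was not tested. A replicate block gave 125 and 60 DEGs over 21 libraries, and over the 6 libraries 245 and 142 DEGs and 3707 and 3581 changed genes. Deviations of same-numbered libraries from their group means correlated at 0.407, 0.0289 and -0.00111 for replicates 1, 2 and 3. Pairs with unlike numbers ran from -0.277 to 0.222. Whether same-numbered libraries share an origin or a batch was not tested. Without 6.5 dpp CSF replicate 3, DEGs were 163 and 86 and changed genes 1243 and 898. RLE scaling, library size alone, 2 other filters and fresh libraries only kept each count within 1.5 times. For the 45 named genes, 755 of 763 alternative values kept direction and call, 5 lost the call, all with 6.5 dpp fresh replicate 1 included, 3 gained one and 0 reversed. On library size alone the medians of 3 lists changed sign: basement membrane (0.0871 to -0.00225), peroxide enzymes (0.0508 to -0.035) and hormone receptors (0.0437 to -0.0433). With only the 6 libraries (replicate block: 0.473 and 0.131) the medians of mesothelium, nerve and fat (-0.416 to 0.5, and 0.437 at 1 CPM) and of pachytene spermatocytes and spermatids (-0.164 to 0.122) turned positive, as they did without 10.5 dpp replicate 3 (0.0166 and 0.0459). Low genes limit the comparison, since 3 counts are under 0.1 CPM here.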

Other observations

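Hormone response genes moved in part, while over all genes tested 4.92% rose and 3.18% fell. Of 23 genes of hormone receptors and androgen or thyroid response, 4 rose and 1 fell, with ranges of 1 to 8 and 0 to 7 over the alternatives. Sgk1, a kinase induced by corticosteroids, rose by 1.43 on the log2 scale, the deiodinase Dio2 by 1.82, the progesterone receptor Pgr by 1.39 and Klf9 by 0.72, while the estrogen receptor Esr1 fell by 1.17 (edgeR's quasi-likelihood test, adjusted p under 0.05).

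Genes of mesothelium, nerve and fat, tissues that lie on or near the tunica, had a summed level of 179 to 193 CPM at D4 and 187 to 189 CPM at 10.5 dpp. Of 15 tested, 2 rose and 3 fell, with ranges of 0 to 4 and 0 to 4, and the list median changed sign with the libraries fitted, from -0.416 to 0.5. Lrrn4, a mesothelial gene, rose by 2.74, whereas Sox10 and S100b, of Schwann cells, fell by 1.08 and 0.94.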
